A study of Homo sapiens with 6 samples.

Results

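The Frizzled genes FZD1 to FZD10 encode the cell-surface receptors for Wnt proteins. They were followed in the established colon cancer line HCT-15, of human origin, on 3 arrays of untreated cells and 3 arrays of cells given 5-aza-2'-deoxycytidine, a nucleoside drug that lowers DNA methylation. No allele, transgene or further agent is given for either group, and both groups are the same line. Members were chosen by name, as every probe set whose RefSeq transcript belongs to a Frizzled gene. All 10 genes were measured, each by 1 probe set, out of 1259 probe sets and 927 named genes on the array. None of the 10 probe set names has an ending used for sets that may detect several transcripts or genes. Total RNA was measured, and the deposited values are log2 intensities from RMA, which removes background, brings arrays to 1 scale and gives 1 value for each set of probes. The series asked how expression, above all of genes for glycan synthesis, changes after the drug. No source used here states its dose or duration.

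Frizzled proteins cross the membrane several times and bind Wnt ligands through a cysteine-rich domain outside the cell. Together with the co-receptors LRP5 and LRP6 they stop the breakdown of beta-catenin, which then enters the nucleus and switches on target genes, and without those co-receptors they can act through beta-catenin-independent routes such as planar cell polarity. In the intestine, Wnt signalling maintains the stem cells of the crypt, and in most colon cancers the pathway is active through mutations that lie downstream of the receptors. By sequence the family falls into the subfamilies FZD1, FZD2 and FZD7; FZD5 and FZD8; FZD4, FZD9 and FZD10; and FZD3 and FZD6.

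In human DNA most methylated cytosines precede a guanine (CpG), and the drug lowers that methylation. Whether methylation bears on the changes of the Frizzled genes was not tested. Of the 5 Frizzled genes with an upstream sequence, the 3 called higher are shown, picked by that call. The calls of FZD4 and FZD8 did not hold in every setting tried. The sequences are the 250 bases before the RefSeq gene start (assembly GRCh38.p14), written 5′ to 3′ along the gene, with every CpG in capitals.
FZD5 (chr2:207769907-207770156, minus strand): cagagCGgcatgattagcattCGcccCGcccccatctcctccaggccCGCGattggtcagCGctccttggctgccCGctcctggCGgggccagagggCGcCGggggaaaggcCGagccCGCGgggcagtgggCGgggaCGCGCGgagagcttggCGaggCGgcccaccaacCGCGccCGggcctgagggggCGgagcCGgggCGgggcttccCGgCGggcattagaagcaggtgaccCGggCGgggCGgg
FZD8 (chr10:35642297-35642546, minus strand): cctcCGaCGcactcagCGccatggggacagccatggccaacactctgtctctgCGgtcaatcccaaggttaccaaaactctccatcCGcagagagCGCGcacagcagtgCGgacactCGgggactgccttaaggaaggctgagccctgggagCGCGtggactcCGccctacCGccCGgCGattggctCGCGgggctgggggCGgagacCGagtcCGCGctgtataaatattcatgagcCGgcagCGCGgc
FZD4 (chr11:86955396-86955645, minus strand): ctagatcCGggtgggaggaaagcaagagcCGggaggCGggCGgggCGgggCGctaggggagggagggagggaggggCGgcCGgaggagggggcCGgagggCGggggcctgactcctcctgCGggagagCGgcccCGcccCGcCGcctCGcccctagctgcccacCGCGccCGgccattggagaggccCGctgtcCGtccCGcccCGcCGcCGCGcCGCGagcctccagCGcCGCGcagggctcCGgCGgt
These stretches hold 30 CpGs for FZD5, 24 for FZD8 and 33 for FZD4. Counted over 300 bases, which add the first 50 of the transcript, FZD4 had 40 CpGs, FZD5 38, FZD8 31, FZD9 31 and FZD1 25, against a median of 22 over the 727 array genes with such a sequence (quartiles 8 and 33). These 5 counts lay above that median, for FZD4, FZD5 and FZD8, which were called higher, and for FZD1 and FZD9, which were not called. FZD2, FZD3, FZD6, FZD7 and FZD10, among them every Frizzled gene called lower, are without a count here. DNA methylation was not measured. TCF and LEF factors, the nuclear partners of beta-catenin, were searched for only by the letters CTTTGAT on either strand. These letters stood in none of these 5 windows. As only 1.38% of the 727 windows held them, their absence from 5 windows cannot show whether such factors bind there.

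Array medians lay between 5.81 and 5.92. Over all probe sets, the lowest correlation within a group was 0.9974 and the highest across groups 0.9844. The titles of the 3 treated arrays carry the word control, and these arrays were grouped by their treatment entry. Untreated replicate 3 is titled as treated but has an untreated source name and treatment entry, and it was kept as untreated. Over all 1259 probe sets, the 3 untreated arrays, this one among them, correlated with each other at 0.9978 or more. None of them correlated with a treated array above 0.9844. Without untreated replicate 3 FZD4 missed the threshold (adjusted p = 0.0628 in limma's test), and the calls of the other 5 called Frizzled genes stood. The labels name no separate cultures for the replicates, and p-values therefore describe the spread between these arrays, which may be technical. With 3 arrays a group, precision is limited, and less RNA per cell cannot be told apart from fewer cells that carry the RNA. Of 16 listed colon epithelial markers 3 were on the array, and all 3 were called in limma's test, in both directions. MUC13 averaged 7.97 in untreated cells and changed by 0.96 on the log2 scale (adjusted p = 6.15e-06), LGALS4 averaged 9.54 and changed by -0.51 (adjusted p = 0.000291), and FUT3 averaged 6.39 and changed by -0.51 (adjusted p = 0.00485). For 6 of 13 leukocyte markers measured, the log2 of the summed level ran from 7.66 to 7.71 in untreated and from 7.82 to 7.90 in treated arrays, with 2 of the 6 called higher (CD33, KLRD1) and 1 lower (CD22). For 7 of 15 stromal and endothelial markers it ran from 6.75 to 6.99 and from 6.75 to 6.88, with 1 called higher (PECAM1) and 1 lower (PDGFRB). Over all 1259 probe sets 18.0% were called higher and 16.8% lower. The part of these 3 marker lists in the results was not tested.

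The Frizzled family did not move one way. FZD2 and FZD7 were lower in treated cells by more than 2-fold, FZD5 was 1.997-fold higher, and the called changes of FZD4, FZD6 and FZD8 were 1.18-fold up, 1.22-fold down and 1.18-fold up. At an adjusted p under 0.05 (limma, Benjamini-Hochberg over all 1259 probe sets), 6 of the 10 genes were called, against 34.8% of all probe sets. FZD4, FZD5 and FZD8 were called higher (18.0% of all probe sets were) and FZD2, FZD6 and FZD7 lower (16.8%). Over all probe sets 227 were called higher and 211 lower, and 197 and 311 with arrays centred on their medians, a setting in which FZD5 was the only Frizzled gene called higher. The 3 treated values lay apart from the 3 untreated values in 7 Frizzled genes, against 46.1% of all probe sets. Of these 7 genes 3 were higher (22.7% of all probe sets) and 4 lower (23.4%). The median log2 change was 0.10 over the 10 genes and -0.01 over all probe sets, while the median absolute change was 0.26 and 0.15. A called change of at least 1.5-fold was seen in 3 of the 10 genes and in 13.4% of all probe sets. A called fall of at least 2-fold was seen in 2 of the 10, and in 1.27% of all probe sets. A called rise of at least 2-fold was seen in 0 of the 10, FZD5 lying just under at 1.997-fold, and in 3.34% of all probe sets.

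**Figure D1:**
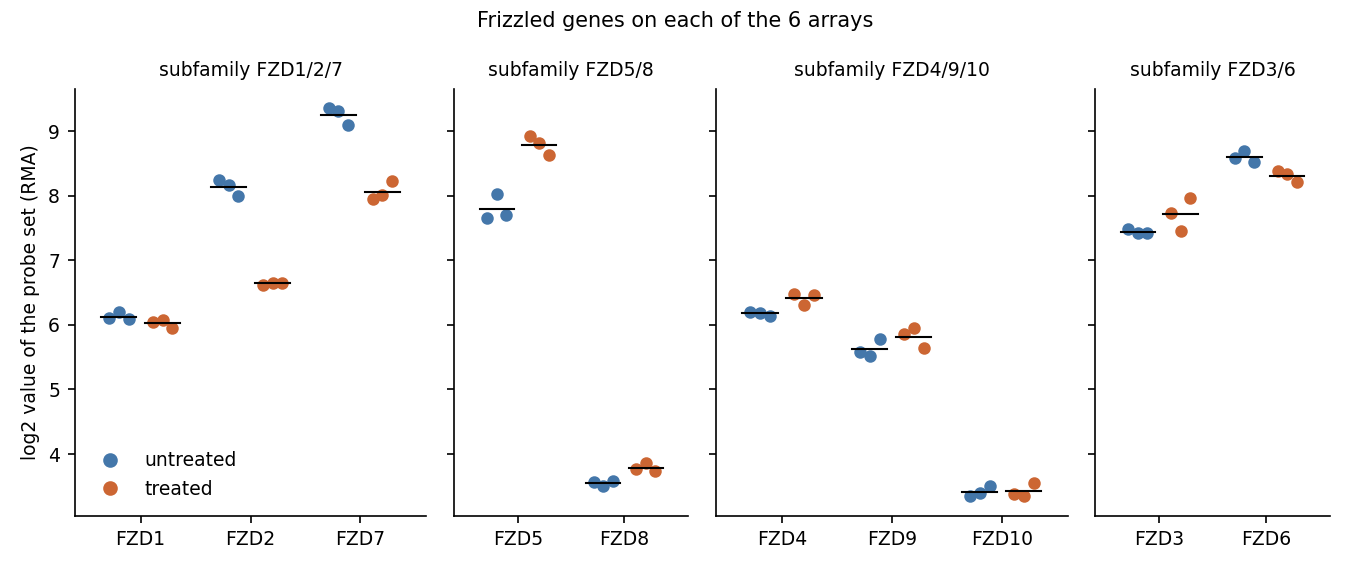
Log2 value (RMA) of each Frizzled probe set on each of the 6 arrays, grouped by subfamily; points are arrays, blue untreated and orange treated, and black lines are group means. FZD2 and FZD7 fell well clear of the untreated arrays and FZD5 rose clear of them, while the groups overlap for FZD3, FZD9 and FZD10. Heights of different genes come from different probes and are not comparable.

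FZD2, FZD7 and FZD1 form a subfamily whose members are often studied as Wnt receptors in the gut and in tumours. FZD2 and FZD7 were both strongly lower in treated cells, and FZD1 was not called. FZD2, a receptor that takes part in WNT5A signalling, had log2 values of 8.24, 8.16 and 7.996 in untreated cells and 6.62, 6.65 and 6.65 in treated cells. The groups were far apart, and the treated arrays lay closer together (SD 0.018, n = 3) than the untreated ones (SD 0.12, n = 3). This is a log2 change of -1.49 ± 0.08 (SE, 3 arrays a group), or 2.81-fold lower (adjusted p = 2.21e-07 in limma's test), rank 4 among falls of the 927 named genes. FZD7, a receptor through which Wnt signals reach intestinal stem cells, had 9.35, 9.30 and 9.10 untreated and 7.95, 8.002 and 8.22 treated. No treated array reached the untreated range. Its log2 change was -1.19 ± 0.10 (SE), or 2.28-fold lower (limma, adjusted p = 4.18e-06), rank 10 among falls. FZD1 stood at 6.10, 6.19 and 6.09 untreated and at 6.05, 6.08 and 5.94 treated. Its groups lay 0.0081 apart, with a log2 change of -0.10 ± 0.07 (SE), a 95% interval of -0.26 to 0.06 and an adjusted p of 0.323 in limma's test. The fall of FZD2 ranged from -1.56 to -1.44 and that of FZD7 from -1.27 to -1.14 over the 13 alternatives in which each was refitted, and each was called in all 13.

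FZD5 and FZD8, close relatives of each other, were both higher in treated cells, FZD5 by far more. FZD5, which in the intestine is needed for Paneth cells to mature, had log2 values of 7.65, 8.02 and 7.70 in untreated cells and 8.92, 8.81 and 8.63 in treated cells. Untreated replicate 2 was the highest of its group and still lay 0.60 below the lowest treated array. The log2 change was 1.00 ± 0.11 (SE, 3 arrays a group; limma, adjusted p = 4.53e-05), rank 37 among rises of the 927 named genes, and FZD5 was called in all 13 alternatives (0.93 to 1.11). FZD8 stood at 3.57, 3.51 and 3.59 untreated and at 3.78, 3.87 and 3.73 treated. These are dim values, with only 15.2% of probe sets at or below its mean, and RMA compresses differences at that level. Its log2 change was 0.24 ± 0.07 (SE), or 1.18-fold (limma, adjusted p = 0.022). FZD8 lost its call in 7 of the 12 alternatives that could be run for it, with adjusted p up to 0.0895, 4 of which left out an array: untreated replicate 1 (0.0548) or 2 (0.079), or treated replicate 1 (0.0597) or 2 (0.0895).

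**Figure D2:**
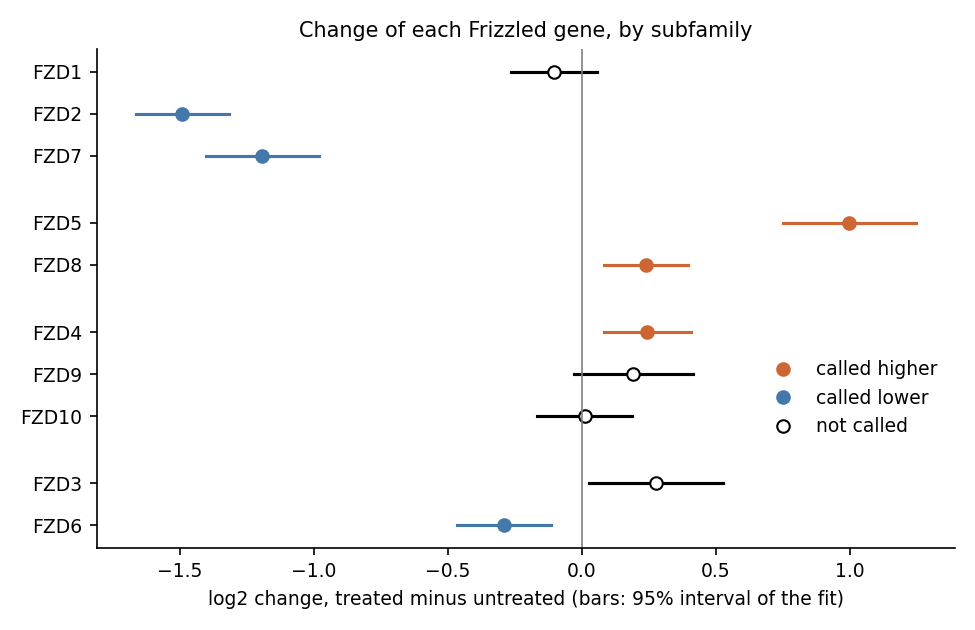
Log2 change (treated minus untreated) of each Frizzled gene with the 95% interval of limma's fit, ordered by subfamily; filled points passed an adjusted p under 0.05. The falls of FZD2 (-1.49) and FZD7 (-1.19) and the rise of FZD5 (1.00) stand apart from the other 7 genes, which lie between -0.29 and 0.28.

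Of FZD4, FZD9 and FZD10, only FZD4 was called, with a small rise. FZD4, the receptor for norrin as well as for Wnt proteins, had log2 values of 6.20, 6.19 and 6.14 in untreated cells and 6.48, 6.31 and 6.47 in treated cells. Its groups did not overlap, with treated replicate 2 the nearest to the untreated arrays. The log2 change was 0.24 ± 0.07 (SE), or 1.18-fold (limma, adjusted p = 0.0239). The call was lost in 7 of 13 alternatives, with adjusted p from 0.0508 to 0.101 in the 5 of them that left out an array (each array but treated replicate 2). FZD9 stood at 5.57, 5.51 and 5.79 untreated and at 5.86, 5.94 and 5.64 treated, and treated replicate 3 lay below untreated replicate 3. Its log2 change of 0.19 ± 0.10 (SE) was not called (limma, adjusted p = 0.17; 95% interval -0.03 to 0.41). FZD10 stood at 3.35, 3.40 and 3.51 untreated and at 3.38, 3.36 and 3.55 treated. The groups were interleaved at a dim level, with 11.8% of probe sets at or below its mean, and the log2 change was 0.0099 ± 0.08 (SE; limma, adjusted p = 0.949; 95% interval -0.17 to 0.19).

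FZD3 and FZD6, known for their roles in planar cell polarity, had changes of opposite sign, of which that of FZD6 was called. FZD6 had log2 values of 8.59, 8.70 and 8.52 in untreated cells and 8.38, 8.34 and 8.21 in treated cells. The treated arrays were all below the untreated ones, by a log2 change of -0.29 ± 0.08 (SE), or 1.22-fold lower (limma, adjusted p = 0.0135). The call was lost when untreated replicate 2 was left out (adjusted p = 0.0617), with quantile-normalized values (0.0532) and without limma's moderation of the variance (0.0578). FZD3 stood at 7.49, 7.42 and 7.42 untreated and at 7.72, 7.46 and 7.97 treated. Its treated arrays were spread widely (SD 0.26, n = 3, against 0.041 in the untreated arrays), and treated replicate 2 lay inside the untreated range. The log2 change of 0.28 ± 0.11 (SE) was not called (limma, adjusted p = 0.089), and without treated replicate 2 it was 0.41 and called (adjusted p = 0.00956).

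The median log2 change was -1.19 for FZD1, FZD2 and FZD7 (range -1.49 to -0.10) and 0.62 for FZD5 and FZD8 (0.24 to 1.00). It was 0.19 for FZD4, FZD9 and FZD10 (0.0099 to 0.24), and -0.01 for FZD3 and FZD6 (-0.29 to 0.28). Members of a subfamily thus also differed, and the last median describes neither of its 2 genes. These medians are descriptions of 3, 2, 3 and 2 genes and were not tested. Whether members of a subfamily changed by unequal amounts was tested on the difference between their log2 values within each array, for all 8 pairs within subfamilies. The smallest p that an exact permutation test of 3 against 3 arrays can give is 0.1, so no pair could pass 0.05, and the adjusted p over the 8 pairs was 0.133 for the 6 pairs at that minimum. Pairs in the subfamilies of 3 share genes, and other gene pairs were not tested for comparison. The largest gap was between FZD1 and FZD2. FZD1 did not rise, and its log2 change of -0.10 was not called. That change lay above the change of FZD2 by 1.39 ± 0.08 (SE) and above that of FZD7 by 1.09 ± 0.14 (two-sided exact p = 0.1 for each). The difference FZD2 minus FZD7 went from -1.12 to -1.42, a change of -0.30 ± 0.08 (exact p = 0.1), and the untreated and treated differences did not overlap. FZD5 rose by 0.76 ± 0.16 more than FZD8 (exact p = 0.1), and the FZD3 minus FZD6 difference rose by 0.57 ± 0.20 (exact p = 0.1). FZD4 changed by 0.23 ± 0.08 more than FZD10 (exact p = 0.1), by 0.05 ± 0.17 more than FZD9 (exact p = 0.8), and FZD9 by 0.18 ± 0.16 more than FZD10 (exact p = 0.4), the last 2 with overlapping groups. FZD8 and FZD10 are dim (15.2% and 11.8% of probe sets at or below their means), where RMA compresses differences, so the pairs that hold either gene compare probe set values and do not show that the underlying RNA changed by unequal amounts.

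**Figure D3:**
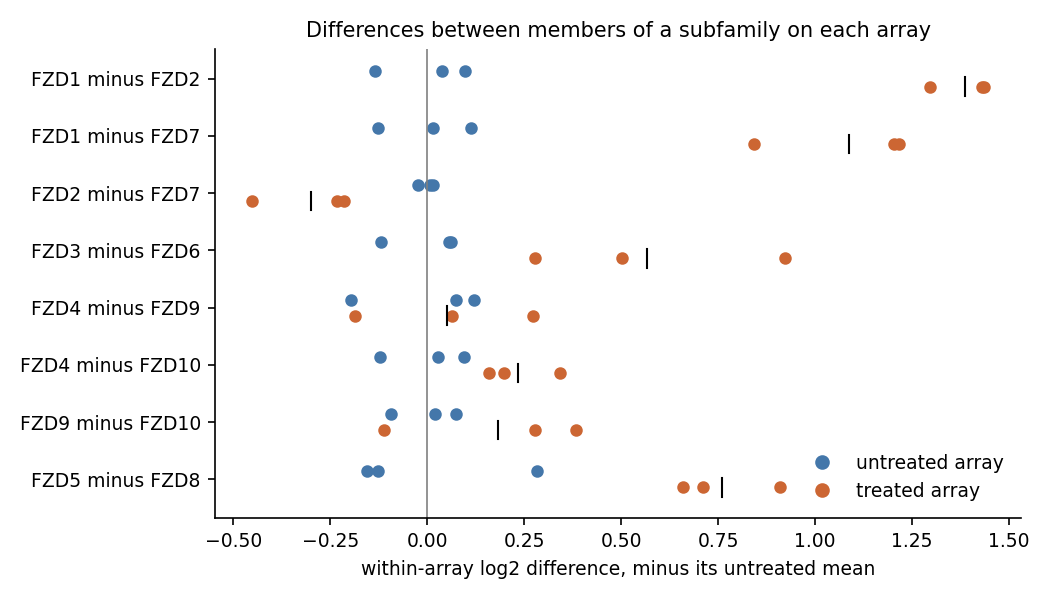
Log2 difference between the 2 members of each within-subfamily pair on every array, shifted so that the untreated mean is 0; points are arrays (blue untreated, orange treated) and the black tick is the treated mean. Treated arrays are clear of untreated ones in 6 of the 8 pairs, by most for FZD1 minus FZD2 (mean 1.39), and overlap them for FZD4 minus FZD9 and FZD9 minus FZD10. Some pairs share genes, and no other gene pairs were compared, so the count has no share beside it. Of single probe sets, 46.1% had groups that did not overlap.

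Genes whose values over the 6 arrays ran most like those of FZD2, the Frizzled gene with the largest change, were RPL28, GALNT6, HS3ST1, FZD7 and EEF1A1. Likeness was the root mean square difference of log2 values after each gene was centred on its own mean, and it was 0.11 for RPL28, a ribosomal protein gene, 0.13 for GALNT6, which starts O-linked glycans, and 0.15 for HS3ST1, a heparan sulfate sulfotransferase. It was 0.17 for FZD7 and 0.18 for EEF1A1, a translation elongation factor. FZD7 was thus among the 5 nearest genes, and the list is a description with no test. The measure spans both groups, so genes with a change of similar size between them come out near. The log2 changes of these 5 genes ran from -1.66 (RPL28) to -1.19 (HS3ST1), and the place of FZD7 largely restates its own fall.

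Of 105 other Wnt pathway genes listed, 32 were on the array, of which 10 were called higher and 2 lower, with a median log2 change of 0.08. Over all probe sets 18.0% were called higher and 16.8% lower, with a median of -0.01. The number called lower was 5 after median centring and 5 after quantile normalization. No member of the lists for beta-catenin and its cytoplasmic partners, for R-spondins and the ligases that remove Frizzled proteins, or for Wnt secretion was measured here, and of co-receptors and related receptors only SMO was. The receptors therefore could be set beside their ligands, 1 antagonist and cell-surface proteoglycans. Among the 18 measured Wnt ligands 6 were called higher (18.0% of all probe sets were) and 1 lower (16.8%), the other 11 were not called, and the median log2 change was -0.04. WNT6 rose by 1.11 ± 0.11 (SE) on the log2 scale (5.84, 5.69 and 5.91 untreated; 6.74, 6.88 and 7.14 treated; limma, adjusted p = 1.42e-05). WNT10A rose by 0.54 ± 0.09 (adjusted p = 0.000882), WNT16 by 0.40 ± 0.08 (adjusted p = 0.00302), WNT11, which acts mainly outside the beta-catenin route, by 0.38 ± 0.08 (adjusted p = 0.00263) and WNT1 by 0.31 ± 0.08 (adjusted p = 0.00889) in limma's test. WNT8B fell by 0.39 ± 0.09 (adjusted p = 0.00638 in limma's test). WNT16 and WNT8B are dim, with 10.4% and 23.3% of probe sets at or below their means. WNT10B, named after its value was seen, was the sixth rise (0.25 ± 0.08, adjusted p = 0.0309). WNT5A, a ligand that signals through FZD2 among others, stood at 3.41 in the untreated and 3.31 in the treated mean and was not called (limma, adjusted p = 0.445). It is dim too, with 10.9% of probe sets at or below its mean, so a change in its RNA could be missed.

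SFRP1, a secreted protein that resembles the ligand-binding domain of Frizzled proteins and captures Wnt ligands, had the largest change of the 32 pathway genes. Its log2 values were 4.45, 3.72 and 4.84 in untreated cells and 6.16, 6.18 and 6.38 in treated cells. Every treated array lay above every untreated one, although the untreated arrays were widely spread (SD 0.57, n = 3), and the rise was 1.90 ± 0.22 (SE; limma, adjusted p = 5.5e-05). SMO, the Hedgehog pathway member related to Frizzled proteins, which does not bind Wnt, rose by 0.67 ± 0.10 (adjusted p = 0.000275). Of 11 heparan sulfate proteoglycans and sulfatases that hold Wnt ligands at the cell surface or edit that binding, SDC4 rose by 0.70 ± 0.08 (adjusted p = 3.6e-05), GPC4 fell by 0.54 ± 0.09 (adjusted p = 0.000983), and 9 were not called. CD44, the only measured gene of 10 listed Wnt targets in intestine, rose by 0.63 ± 0.08 (adjusted p = 0.000124) from a low level of 3.13.

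**Figure D4:**
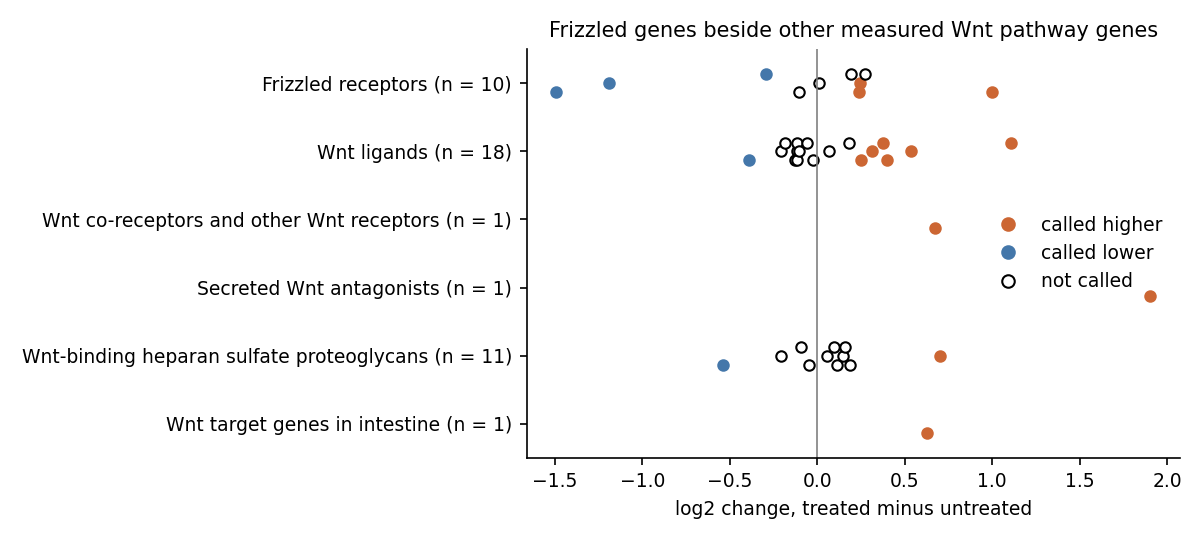
Log2 change (treated minus untreated) of the 10 Frizzled genes and of the measured members of 5 other Wnt lists, 1 point a gene, filled where limma's adjusted p was under 0.05. FZD2 and FZD7 are the lowest points of the plot, SFRP1 (1.90) is the highest, and the ligands range from -0.39 (WNT8B) to 1.11 (WNT6).

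**Figure D5:**
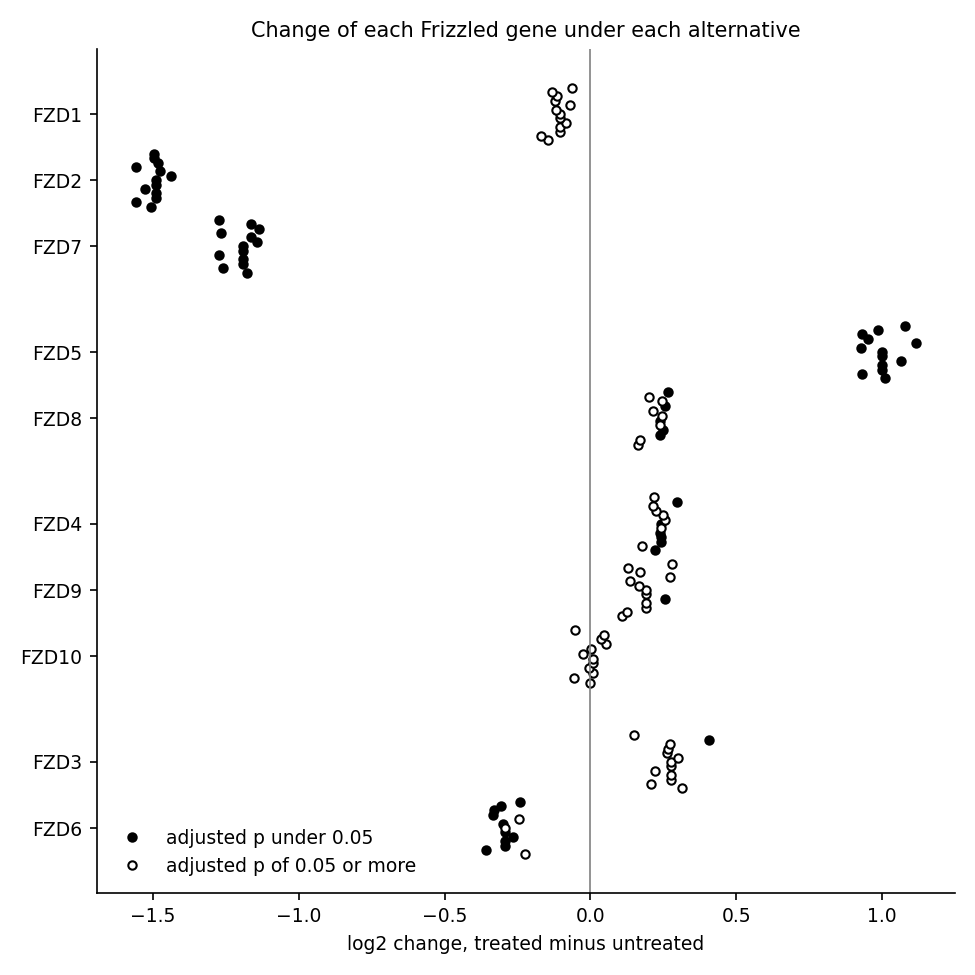
Log2 change of each Frizzled gene under each of 12 or 13 alternative settings, 1 point a setting, filled where the adjusted p was under 0.05. FZD2, FZD5 and FZD7 are filled throughout, FZD4, FZD6 and FZD8 are filled in 6, 10 and 5 settings, and FZD10 lies on both sides of 0.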

How the data were processed

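Biotin-labelled RNA from Trizol extracts was put on Affymetrix arrays, per the labels. The log2 values of the single deposited table came from RMA, as the submitters' processing notes name it. No source used here gives its version, the platform or a build, and 0 columns of values were left unused. Log2 was inferred from the range of 2.13 to 13.67. Dim probe sets have their differences compressed by RMA, and as no detection calls were used, a dim value has no background beside it.

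RefSeq transcript identifiers in probe set names were matched, versions dropped, to RefSeq genes (GRCh38.p14), which gave 1 symbol for 1043 probe sets. The probe set with the highest mean stood for a gene. Upstream sequences are RefSeq's, from a table of the same assembly, and 5 of the 10 Frizzled genes matched.

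A linear model with a term for treatment was fitted to all 1259 probe sets and 6 arrays (R 4.3.3, limma 3.58.1, lmFit and eBayes), two-sided, with Benjamini-Hochberg adjustment and a threshold of 0.05. Folds are 2 to the power of the log2 change, and errors are limma's SE. Pairs used the exact permutation test of scipy 1.17.1 and an SE from the pooled spread of 3 and 3 arrays. The steps were tested on 1259 simulated probe sets of this comparison, where 100 of 100 changes of 1.5-fold and 100 of 100 of 2-fold were called, with 9 false calls. The simulated noise was normal, independent between probe sets and arrays, and had limma's fitted spread. The simulation therefore checks the steps and does not measure how many changes are found in the real arrays.

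The members and lists were chosen with earlier results of these data known. Named were all Frizzled genes, in each Wnt list all called genes or the 6 with the largest change, and the 5 genes most like the Frizzled gene with the largest change. The main fit did not pair arrays by replicate number. Alternatives were quantile normalization, median centring, leaving out the dimmest 33.3% of probe sets, an intensity trend, array weights, a replicate block, leaving out single arrays, an ordinary test and stricter thresholds.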

Additional observations from a re-analysis of the deposited data

How the results depend on the processing

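FZD2, FZD5 and FZD7 kept direction and call in all 13 refits and under both stricter thresholds. FZD4 kept its call in 6 of 13, FZD6 in 10 of 13 and FZD8 in 5 of 12, always with the same direction, and the dimmest 33.3% of probe sets held FZD8 and FZD10. The number of Frizzled genes called higher, 3 in the main test, was 1 after median centring, 1 with the replicate number as a block, 1 at an adjusted p under 0.01 and 1 with a minimum of 1.5-fold, and 1 to 3 with each array left out. The number called lower stayed within 2 to 3. Deviations of same-numbered arrays from their group means correlated at -0.274, 0.037 and -0.111. Those of arrays with different numbers correlated at -0.328 to 0.422. With 3 arrays a group, such correlations cannot decide whether arrays were handled in pairs, by number or in another order. The block called 209 probe sets higher and 185 lower. FZD9 was called with array weights (0.26, adjusted p = 0.0335 in limma's test). FZD10, not called anywhere, changed sign after quantile normalization (-0.0030), after median centring (-0.057), with array weights (-0.0047), and without untreated replicate 1 (-0.025) or treated replicate 3 (-0.052), in a range of -0.052 to 0.054 over the arrays left out. FZD4 minus FZD9 changed sign without untreated replicate 3 (-0.047) and without treated replicate 3 (-0.060), and over the arrays left out it ranged from -0.060 to 0.17. The other 7 pair differences kept their direction. Median centring cannot change a within-array difference. Wnt pathway genes called lower, 2 in the main test, numbered 5 after quantile normalization, 5 after median centring, 1 without the dimmest 33.3%, 4 with array weights, 1 in the ordinary test and 0 with a minimum of 1.5-fold, a setting that left 5 called higher and 169 probe sets called in all. Over all probe sets, 211 were called lower in the main test, 265 after quantile normalization and 311 after median centring. The count was 192 without the dimmest 33.3%, 243 with array weights and 164 in the ordinary test. Median centring moves every log2 change by the same amount, and the median over all probe sets went from -0.0118 to -0.0791. The cause of the shifts in the other settings was not tested. Each Frizzled gene had 1 probe set, so no other probe set could be tried. Signal over background was not available for FZD8 and FZD10, the dimmest members.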

Other observations

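The likeness measure used for FZD2 was also applied to FZD5 and FZD7, a choice made after their values were seen, and the values are descriptions with no test. Here too, genes with a change of similar size between the groups come out near. Nearest to FZD5 were B3GNT2, which extends lactosamine chains (root mean square difference 0.093 over the 6 arrays, 1.87-fold higher in treated cells), SLC17A5, the lysosomal sialic acid exporter (0.11, 1.75-fold), OLR1, a receptor for oxidised lipoprotein (0.12, 1.80-fold), GDF15, a stress-induced cytokine (0.13, 1.98-fold), and APH1B, a gamma-secretase subunit (0.13, 1.98-fold). Nearest to FZD7 were HS3ST1 (0.065, 2.28-fold lower), LGALS8, a galectin (0.087, 2.25-fold lower), GALNT6 (0.11, 2.59-fold lower), the sulfatase family member ARSD (0.14, 1.91-fold lower) and FUT2, which makes the H antigen (0.15, 1.88-fold lower). HS3ST1 and GALNT6 were among the 5 nearest genes of FZD2 as well as of FZD7. The name of the GALNT6 probe set has an ending used for sets that may detect several transcripts.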
